A study of Homo sapiens with 12 samples.

Results

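Untreated CSC-like exosomes were set against exosomes of cisplatin-treated parental cells. Neither group is a control of the other. Members were the 3 untreated CSC-like and the 3 cisplatin-treated parental libraries, 6 of the 12 samples of the series, chosen by their labels and by the miRNA names that both deposited tables list. All libraries hold small RNA from exosomes of MDA-MB-231, a mesenchymal triple-negative human breast adenocarcinoma line. The CSC-like cells (cancer stem cell-like, sorted from that line) received no drug, and the parental cells were unsorted and received 56 µM cisplatin, a platinum drug that crosslinks DNA, for 48 h. The untreated CSC-like and untreated parental cells are also listed at 48 h, and the cisplatin-treated CSC-like cells at 56 µM for 48 h. Every culture was kept in serum depleted of exosomes. The marker used for the sort is not given in the sources used here, and all cells descend from 1 line. Cell population, drug and deposited table differ together between the groups, so their parts in any difference cannot be told apart.

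Exosomes are small vesicles that cells release and that other cells can take up together with their RNA. A miRNA guides an Argonaute protein to messenger RNAs that pair with its seed, bases 2 to 8 from the 5′ end, and lowers their output. Breast cancer cells with stem-like traits are known for low let-7, and both such cells and drug-stressed cells are studied for the miRNAs they export. The comparison asked how alike the exosomal cargo of drug-treated parental cells and of stem-like cells is.

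The 2 tables share 98 miRNA names, which held between 98.8% and 99.5% of the listed counts of each of the 6 libraries. Listed counts came to 1526, 2172 and 2522 in the untreated CSC-like libraries and to 6622, 3552 and 3924 in the cisplatin-treated parental ones, so an undetected miRNA may still hold a share of 0.197% in the shallowest and 0.0453% in the deepest library (3 counts of the total). These floors and the exact intervals of shares cover counting error only, while intervals of log2 differences also include the spread between libraries. A table lists a miRNA only where each of its groups has at least 1 count. Only names in both tables were compared, which left out 39 names listed only in the parental table and 16 listed only in the CSC-like table. The most abundant of the 39, miR-28-3p, had 22, 5 and 2 counts in the cisplatin-treated parental libraries. The most abundant of the 16, miR-30a-3p, had 3, 2 and 1 in the untreated CSC-like ones. Mesenchymal lines such as this one have little of the epithelial miR-200 family. Of that family the shared names held only miR-200b-3p and miR-429, with at most 8 and 2 counts in a library. Together these stood at 0.114% ± 0.02 of counts in untreated CSC-like and 0.163% ± 0.0896 in cisplatin-treated parental exosomes (SD, n = 3 each). The shared names held no miRNA of the miR-302 and miR-371 clusters, which mark pluripotent stem cells. Of the blood cell and serum miRNAs the shared names held miR-126-3p and miR-486-5p, with at most 7 and 3 counts in a library. Together they stood at 0.129% ± 0.00969 in untreated CSC-like and 0.128% ± 0.143 in cisplatin-treated parental exosomes (SD, n = 3 each). miR-122-5p, listed only in the parental table, had 2, 3 and 3 counts in the cisplatin-treated parental libraries. miR-451a, listed only in the CSC-like table, had 0, 1 and 0 in the untreated CSC-like ones.

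The mature sequences of a selection of the miRNAs named below are given here 5′ to 3′ with the seed in capitals, from RefSeq (GRCh38.p14). The selection leaves out miR-10400-5p, the 1 miRNA that passed the test described below. miR-21-5p and miR-100-5p are shown as the most abundant entries, miR-7-5p and miR-378a-3p as those lower without overlap in CSC-like exosomes, the let-7 members because they share 1 seed, and the last 2 as GC-rich entries that varied between libraries.
miR-21-5p: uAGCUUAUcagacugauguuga
miR-100-5p: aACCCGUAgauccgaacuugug
miR-7-5p: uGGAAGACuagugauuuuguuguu
miR-378a-3p: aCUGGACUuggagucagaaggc
let-7a-5p: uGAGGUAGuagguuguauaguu
let-7b-5p: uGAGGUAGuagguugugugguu
let-7f-5p: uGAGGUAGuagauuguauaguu
let-7g-5p: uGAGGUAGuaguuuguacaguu
let-7i-5p: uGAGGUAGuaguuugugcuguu
miR-4488: aGGGGGCGggcuccggcg
miR-4516: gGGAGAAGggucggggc

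By Bray-Curtis dissimilarity, the libraries were about as far apart across the groups as within them. This measure, which is 0 for the same composition and 1 for no shared miRNA, averaged 0.206 over the 9 pairs of an untreated CSC-like and a cisplatin-treated parental library. Over the 6 pairs within a group it averaged 0.216. Untreated CSC-like libraries lay 0.195 to 0.31 from each other and 0.124 to 0.296 from cisplatin-treated parental ones. The between-group values reached lower than these CSC-like ones, with 5 of the 9 below the closest CSC-like pair. Of the cisplatin-treated parental libraries, which are deeper, replicates 2 and 3 lay 0.072 from each other. Replicate 1, the deepest, lay 0.244 from replicate 2 and 0.236 from replicate 3, both above the between-group mean. The mean within this group, 0.184, was below the between-group mean only through the pair of replicates 2 and 3. The CSC-like mean of 0.248 was above it. With every library cut at random to 1526 counts, the means were 0.22 between and 0.235 within groups.

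Each untreated CSC-like library had its nearest neighbour, among the 6 libraries, in the other group. CSC-like replicate 3 lay 0.124 from cisplatin-treated parental replicate 2, but 0.195 from the nearest library of its own group. CSC-like replicate 1 lay 0.149 from parental replicate 3. CSC-like replicate 2 and parental replicate 1, both rich in GC-rich entries, were nearest to each other, at 0.185. Only parental replicates 2 and 3 were nearest to a library of their own group, namely to each other, at 0.072. For each library 3 of the 5 others belong to the other group. The mean between-group minus within-group value was -0.00993, and it turned to 0.00271 without CSC-like replicate 1 and to 0.0178 without CSC-like replicate 3. On the scale of log2(share in percent + 0.1), where rare miRNAs weigh more, between-group pairs were the farther ones (mean Euclidean distance 8.22 against 7.83).

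The groups not compared here differed in how far away they lay. Cisplatin-treated CSC-like libraries had a mean dissimilarity of 0.253 to the untreated CSC-like and 0.235 to the cisplatin-treated parental libraries. Untreated parental libraries lay 0.407 and 0.411 away, but also 0.424 from each other on average. No test was made of these differences in distance. The cisplatin-treated CSC-like libraries held only 429, 1877 and 1575 listed counts. These distances were not taken at a common depth, so they also carry counting error.

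**Figure D1:**
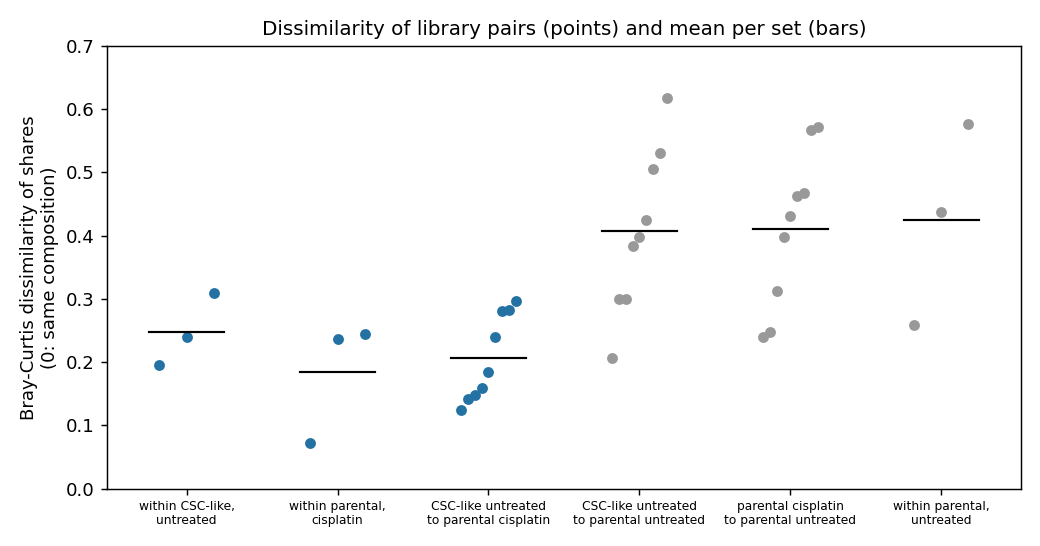
Bray-Curtis dissimilarity of miRNA shares (y axis, no unit, 0 for the same composition) for pairs of libraries, by kind of pair on the x axis, with points for pairs and bars for means. The 9 pairs across the groups compared average 0.206, beside 0.248 within untreated CSC-like and 0.184 within cisplatin-treated parental libraries, and pairs with an untreated parental library (grey) average above 0.4.

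Few miRNAs passed the test between the groups. edgeR's quasi-likelihood test was run on the 32 shared miRNAs with enough counts, and differences are given as log2 values that are positive where untreated CSC-like exosomes were higher. miR-10400-5p was higher in untreated CSC-like exosomes and was the 1 miRNA that passed (3.12% of those tested), while none passed as lower. At an unadjusted p under 0.05 there was 1 miRNA in each direction in edgeR, and 2 higher and 3 lower in DESeq2, which also called miR-10400-5p alone. Fitted differences were positive for 15 and negative for 17 of the 32 miRNAs, 27 of them were below 1 in size, and their median was -0.13 (-0.01 with library totals in place of TMM). Library shares of the groups were fully separate for 7 tested miRNAs (21.9%), higher in CSC-like exosomes for 5 (15.6%) and lower for 2 (6.25%). Of the lower ones, miR-7-5p reached the level of the count filter only in the parental libraries.

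**Figure D2:**
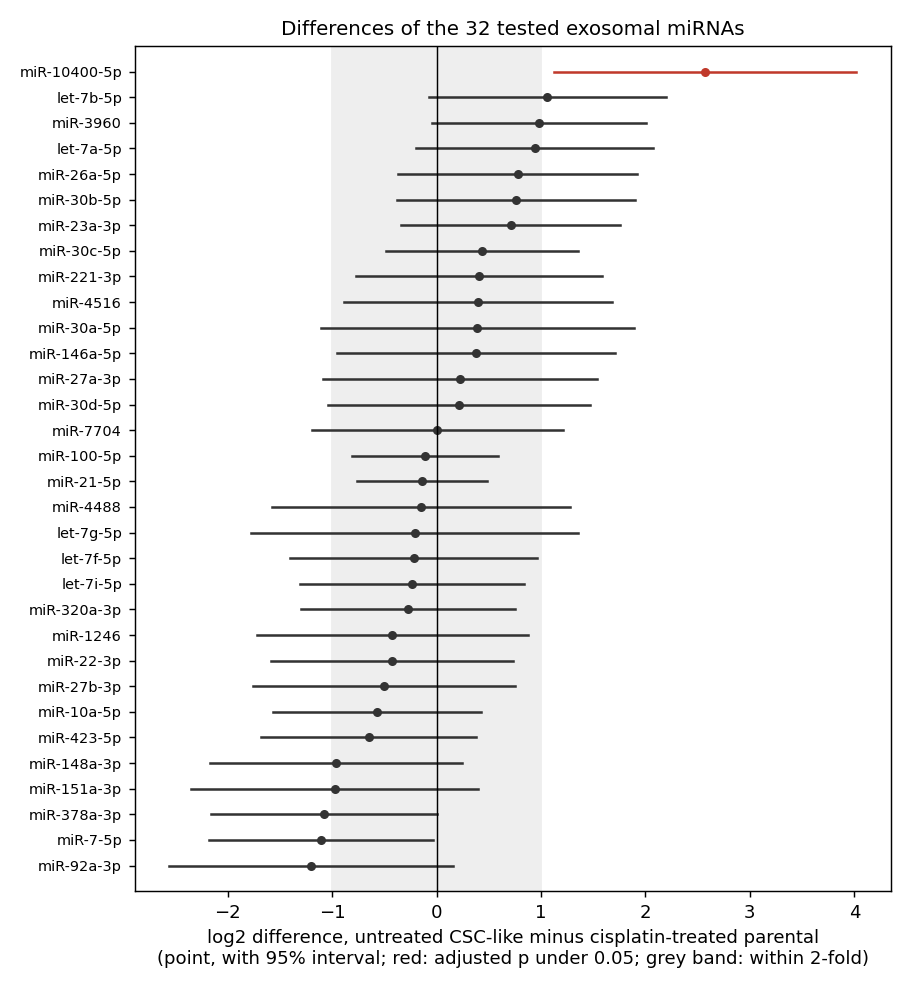
Fitted log2 difference (x axis, untreated CSC-like minus cisplatin-treated parental) with its 95% interval for the 32 tested miRNAs (y axis), and a grey band for differences within 2-fold. Only the interval of miR-10400-5p (red, 1.12 to 4.02) lies wholly above 0, that of miR-7-5p lies just below 0 without passing the adjusted test, and those of miR-21-5p and miR-100-5p lie within the band.

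Intervals show how tightly likeness is bounded. The 95% interval of the log2 difference lay within 2-fold for 2 miRNAs (6.25% of the 32), miR-21-5p and miR-100-5p, which together made up 42.8% to 51.8% of the counts of a library. It lay within 4-fold for 23 miRNAs (71.9%), which held 80.9% to 87.2%. With cisplatin-treated parental replicate 2 or 3 left out, the latter number was 12 and 14. The other 9 intervals, those of miR-10400-5p, miR-7-5p, miR-378a-3p, miR-3960, let-7a-5p, let-7b-5p, miR-92a-3p, miR-148a-3p and miR-151a-3p, reached past 4-fold.

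miR-21-5p, which represses the tumour suppressor PDCD4, was the most abundant entry in all 6 libraries. It had 391, 524 and 978 counts in the untreated CSC-like and 1891, 1208 and 1299 in the cisplatin-treated parental libraries, or 29.5% ± 8.06 and 31.9% ± 2.92 of counts (SD, n = 3 each). The groups overlapped, with the highest and the lowest share both in CSC-like libraries. The log2 difference was -0.14 (95% interval -0.76 to 0.48, adjusted p = 0.82 in edgeR), and it turned to 0.16 without CSC-like replicate 1.

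miR-100-5p, which represses mTOR, was second in all 6 libraries. Its counts were 262, 511 and 329 against 1430, 568 and 644, that is 17.9% ± 5.28 in untreated CSC-like and 17.999% ± 3.12 in cisplatin-treated parental exosomes (SD, n = 3 each). The CSC-like libraries held both the highest and the lowest share. The log2 difference was -0.11 (95% interval -0.81 to 0.58, adjusted p = 0.82 in edgeR). Its sign was not stable, reaching 0.45 without CSC-like replicate 3. In untreated parental exosomes miR-100-5p made up 39.0% ± 15.6 (SD, n = 3).

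Further down the ranking, miR-146a-5p, which restrains NF-kB signalling by repressing TRAF6 and IRAK1, made up 6.82%, 3.59% and 6.03% of counts in untreated CSC-like and 1.22%, 5.35% and 5.63% in cisplatin-treated parental libraries. Exact 95% intervals were 5.6 to 8.2, 2.85 to 4.46 and 5.13 to 7.03, and 0.973 to 1.52, 4.63 to 6.14 and 4.93 to 6.4. Means were 5.48% ± 1.68 and 4.07% ± 2.47 (SD, n = 3 each), and parental replicate 1 had the lowest of the 6. Its log2 difference of 0.38 (95% interval -0.95 to 1.71) did not pass and turned to -0.03 without that library. The 10 most abundant miRNAs together held 74.8% to 81.5% of the counts of the CSC-like and 75.6% to 79.5% of those of the parental libraries.

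**Figure D3:**
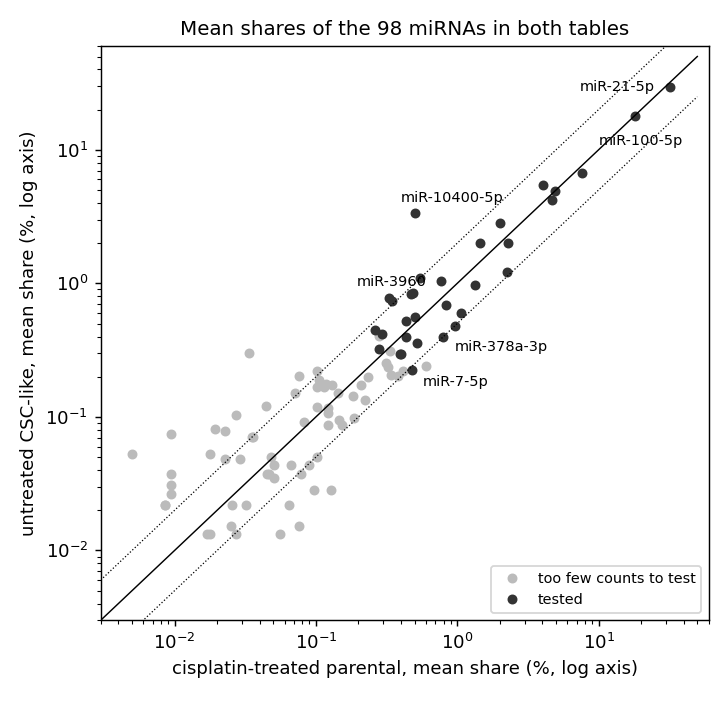
Mean share of counts of the 98 shared miRNAs in cisplatin-treated parental (x axis) and untreated CSC-like exosomes (y axis), in percent on log axes, with equality as a solid and 2-fold differences as dotted lines. miR-21-5p and miR-100-5p lie close to the line of equality, and miR-10400-5p, at 3.37% against 0.506%, lies farthest from it among the tested miRNAs (black).

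miR-10400-5p was counted 33, 140 and 38 times in the untreated CSC-like libraries and 46, 12 and 19 times in the cisplatin-treated parental ones. As shares these were 2.16% (exact 95% interval 1.49 to 3.02), 6.45% (5.45 to 7.56) and 1.51% (1.07 to 2.06), against 0.695% (0.509 to 0.925), 0.338% (0.175 to 0.589) and 0.484% (0.292 to 0.755). All 3 CSC-like libraries were above all 3 parental ones, and CSC-like replicate 2 stood well above the rest. Group means were 3.37% ± 2.68 and 0.506% ± 0.179 (SD, n = 3 each), a ratio of 6.67. The log2 difference was 2.57 (SE 0.69, 95% interval 1.12 to 4.02, adjusted p = 0.0462 in edgeR's quasi-likelihood test).

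That call depended on single libraries and settings. It ended without CSC-like replicate 2 (log2 difference 1.62, adjusted p = 0.468), without cisplatin-treated parental replicate 2 (2.29, adjusted p = 0.275) and without cisplatin-treated parental replicate 3 (2.51, adjusted p = 0.456). It also ended with those parental libraries summed as 1 sample (2.68, adjusted p = 0.258), with a filter of at least 15 counts (2.77, adjusted p = 0.0703) and in a model over all 4 groups (2.72, adjusted p = 0.527). A replicate block, which assumes a pairing that no label states, ended it too (2.38, adjusted p = 0.445). Across the 14 alternatives its log2 difference lay between 1.62 and 3.42, with an adjusted p between 0.00627 and 0.527. In the groups not compared, miR-10400-5p stood at 3.88%, 0.302% and 0.999% in untreated parental libraries (exact 95% intervals 3.27 to 4.58, 0.131 to 0.594 and 0.714 to 1.36), which overlaps both groups. In cisplatin-treated CSC-like libraries it stood at 2.1%, 0.426% and 0.444% (exact 95% intervals 0.964 to 3.945, 0.184 to 0.838 and 0.179 to 0.914), so replicates 2 and 3 lay within the range of cisplatin-treated parental libraries.

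MIR10400 lies on chromosome 8 of GRCh38, from 144462485 to 144462539, across a coding exon of CYHR1 in GENCODE 29. The mature entry has 21 bases with a GC content of 90.5%. Its longest run of bases shared with another of the 98 entries is 11 bases, with miR-3960, followed by 8 bases with miR-7704. How the authors' counting treated reads that match more than 1 entry or another GC-rich RNA is not given in the sources used here.

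GC-rich entries varied widely between libraries of the same group. The 20 shared entries with a GC content of at least 60% held 9.76% (exact 95% interval 8.32 to 11.4), 23.3% (21.5 to 25.1) and 7.3% (6.31 to 8.38) of counts in the untreated CSC-like libraries. In the cisplatin-treated parental libraries they held 16.04% (15.2 to 16.9), 6.56% (5.77 to 7.42) and 6.5% (5.75 to 7.32). CSC-like replicate 2 and parental replicate 1 were thus high in both groups, and the groups overlapped. Of the 5 tested entries of this kind 1 passed and the median log2 difference was 0.4, beside 0 of 27 and -0.21 for the other tested miRNAs. The part of this GC-rich content in the difference of miR-10400-5p was not tested.

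miR-10400-5p took up a different part of the GC-rich counts in each group, a quantity chosen after its values were seen. It made up 22.1% (exact 95% interval 15.8 to 29.7), 27.7% (23.8 to 31.8) and 20.7% (15.05 to 27.2) of them in the untreated CSC-like libraries. In the cisplatin-treated parental libraries it made up 4.33% (3.19 to 5.74), 5.15% (2.69 to 8.82) and 7.45% (4.55 to 11.4). No interval of one group reached one of the other, but these intervals cover counting error only. miR-10400-5p was singled out by the test on these same libraries, so this separation gives its call no further support. The value of CSC-like replicate 2 lay close to those of replicates 1 and 3 on this scale, unlike its share of all counts. Untreated parental libraries stood at 16.5%, 7.92% and 11.2% (14.04 to 19.2, 3.48 to 15.01 and 8.15 to 14.98). Cisplatin-treated CSC-like libraries stood at 8.04%, 5.59% and 4.46% (3.74 to 14.7, 2.45 to 10.7 and 1.81 to 8.97), all below the untreated CSC-like ones and near the cisplatin-treated parental ones.

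**Figure D4:**
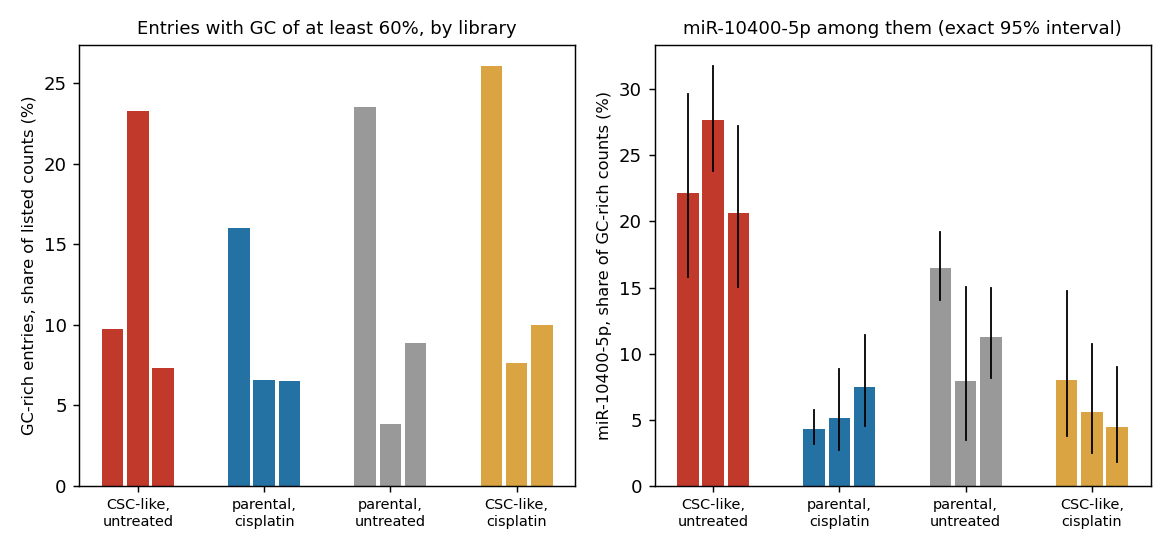
Left, share of listed counts (y axis, percent) in entries with a GC content of at least 60%, 1 bar per library and replicates 1 to 3 from left to right in each group. Right, percent of those counts that belong to miR-10400-5p, with exact 95% intervals. Untreated CSC-like libraries lie between 20.7% and 27.7% and cisplatin-treated parental ones between 4.33% and 7.45%.

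The other GC-rich entries did not pass. miR-4488, miR-4516, miR-3960, miR-7704 and miR-10400-5p itself are on a list of entries taken to resemble fragments of other structured RNAs. That resemblance was not tested. miR-4488 had 34, 212 and 68 counts against 657, 95 and 88, and shares of 4.89% ± 4.22 and 4.95% ± 4.31 (SD, n = 3 each). Its high libraries were again CSC-like replicate 2 and parental replicate 1. miR-4488 had a log2 difference of -0.15 whose sign turned in 5 of 14 alternatives, reaching 0.95 without parental replicate 1. miR-3960, whose gene lies on chromosome 9 (127785833 to 127785923, GRCh38) across coding sequence of CDK9, had 12, 21 and 12 counts against 19, 16 and 12. Its shares of 0.743% ± 0.248 and 0.348% ± 0.0895 (SD, n = 3 each) did not overlap, with CSC-like libraries higher, and the log2 difference was 0.98 (95% interval -0.05 to 2.01, adjusted p = 0.419 in edgeR), or 1.58 without CSC-like replicate 3. miR-4516 (0.40) and miR-7704 (0.01) differed less. Of the 10 shared names on the list of entries resembling other structured RNAs 6 were tested, with a median log2 difference of 0.2. None passed besides miR-10400-5p, the 1 call among all 32 tested miRNAs (3.12%).

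miR-7-5p, which represses the EGF receptor, was lower in every untreated CSC-like library than in any cisplatin-treated parental one. Its counts were 4, 3 and 7 against 22, 21 and 20, or 0.226% ± 0.0764 and 0.478% ± 0.132 of counts (SD, n = 3 each). It reached the level of the count filter in no CSC-like library and was tested only through the parental ones, where it was high. Being tested thus depended on the same difference, so the values of its fit give no separate support. The log2 difference of -1.11 (SE 0.51, 95% interval -2.18 to -0.04) had an unadjusted p of 0.0431 and did not pass after adjustment (adjusted p = 0.419 in edgeR). It was negative in all 11 alternatives that tested it, from -1.29 to -0.90. Untreated parental libraries had 1, 2 and 3 counts of miR-7-5p, 0.0596% ± 0.0271 (SD, n = 3), below both groups. The miRNA has 3 genes in GRCh38, whose counts cannot be told apart: MIR7-1 on chromosome 9 (83969748 to 83969857, where GENCODE 29 has exon and UTR of HNRNPK), MIR7-2 on chromosome 15 (88611825 to 88611934) and MIR7-3, intronic to MIR7-3HG, on chromosome 19 (4770670 to 4770779).

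miR-378a-3p, processed from an intron of PPARGC1B on chromosome 5 (149732825 to 149732890, GRCh38) and linked to energy metabolism, was the other tested miRNA lower without overlap. It was counted 5, 11 and 9 times in untreated CSC-like and 69, 21 and 30 times in cisplatin-treated parental libraries, with shares of 0.397% ± 0.0959 and 0.799% ± 0.227 (SD, n = 3 each). The lowest parental share exceeded the highest CSC-like share by a small margin. The log2 difference was -1.08 (95% interval -2.16 to 0.01, adjusted p = 0.419 in edgeR). It ranged from -1.38 to -0.65 over the alternatives.

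miR-30b-5p and miR-22-3p are given because earlier results of these data single them out. miR-30b-5p, whose family is associated with epithelial cells, had 7, 29 and 18 counts in untreated CSC-like and 19, 21 and 21 in cisplatin-treated parental libraries, or 0.836% ± 0.451 and 0.471% ± 0.162 (SD, n = 3 each). The groups overlapped, and the log2 difference was 0.76 (95% interval -0.38 to 1.90, adjusted p = 0.48 in edgeR). It was 1.399 without CSC-like replicate 1 and 0.29 without CSC-like replicate 2. Untreated parental libraries stood at 0.047% ± 0.0246 (SD, n = 3), and none of them reached any library of either group. miR-22-3p, which represses TET enzymes in breast cancer, had 4, 4 and 11 against 12, 21 and 17 counts, with shares of 0.294% ± 0.129 and 0.402% ± 0.207 (SD, n = 3 each) that overlapped. Its log2 difference was -0.43 (95% interval -1.59 to 0.73). Untreated parental libraries stood at 0.0387% ± 0.0108 of miR-22-3p (SD, n = 3), again below every library of either group. miR-3135b, with at most 7 counts in any of the 6 libraries, was not tested.

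**Figure D5:**
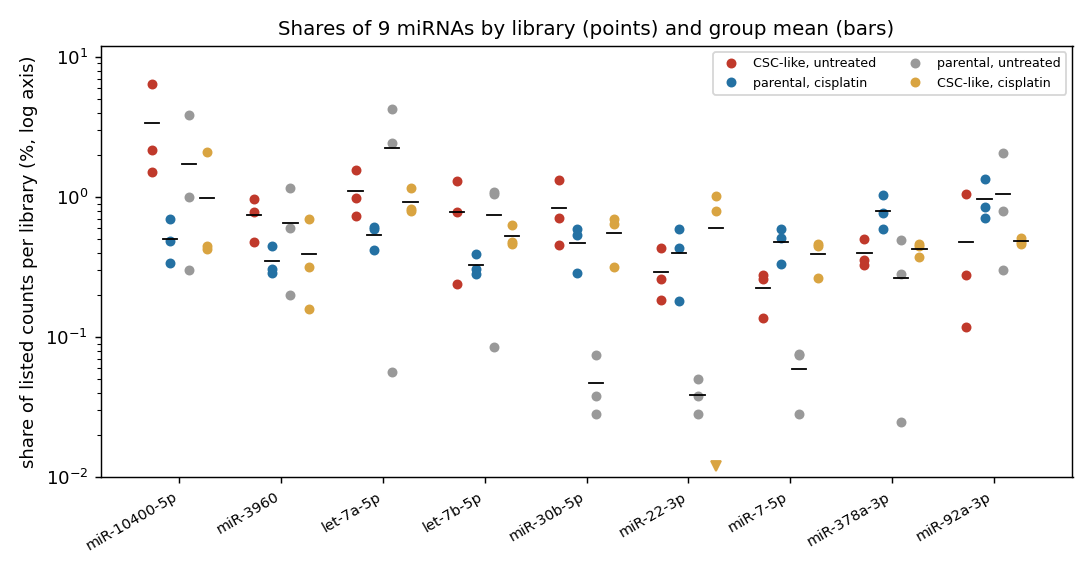
Share of listed counts per library (y axis, percent, log axis) of 9 miRNAs (x axis) in the 4 groups, with points for libraries, bars for group means and a triangle at the lower edge for a library with 0 counts. miR-10400-5p and miR-3960 lie higher and miR-7-5p and miR-378a-3p lower in untreated CSC-like (red) than in cisplatin-treated parental libraries (blue). Untreated parental libraries (grey) lie below both for miR-30b-5p, miR-22-3p and miR-7-5p.

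The let-7 family, which represses RAS and HMGA2 and marks differentiation, made up 15.03% ± 3.59 of counts in untreated CSC-like and 15.6% ± 4.83 in cisplatin-treated parental exosomes (SD, n = 3 each). Of its 8 shared names 5 were tested, none passed in either direction, and the median log2 difference was -0.21. let-7a-5p had 24, 16 and 25 counts against 39, 15 and 24, and its shares of 1.1% ± 0.429 and 0.541% ± 0.103 (SD, n = 3 each) did not overlap. The log2 difference of let-7a-5p was 0.94 (95% interval -0.19 to 2.07, adjusted p = 0.446 in edgeR).

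let-7b-5p differed by 1.06 (95% interval -0.07 to 2.2, adjusted p = 0.419 in edgeR), with 20, 17 and 6 counts in untreated CSC-like and 26, 10 and 12 in cisplatin-treated parental libraries. CSC-like replicate 3 was the lowest of the 6 in share, and without it let-7b-5p passed (1.84, adjusted p = 0.0241). The other tested members had small negative values, let-7i-5p of -0.23, let-7f-5p of -0.22 and let-7g-5p of -0.21, of which let-7f-5p and let-7g-5p turned positive in 1 and 4 of 14 alternatives. let-7a-5p differs from let-7f-5p in 1 base and from let-7b-5p in 2, so reads with an error can be counted for a neighbour.

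The miR-30 family stood at 3.84% ± 1.53 in untreated CSC-like and 2.67% ± 0.283 in cisplatin-treated parental exosomes (SD, n = 3 each), with 1 of the 5 shared names untested. None of the 4 tested members passed, and all had positive fitted values, with a median log2 difference of 0.41. miR-30c-5p had 6, 10 and 10 against 18, 9 and 14 counts, and its shares of 0.417% ± 0.0379 and 0.294% ± 0.0552 (SD, n = 3 each) did not overlap. Its log2 difference was 0.44 (95% interval -0.49 to 1.36, adjusted p = 0.716 in edgeR). miR-30a-5p (0.39) and miR-30d-5p (0.22) turned negative without CSC-like replicate 1 (-0.19 and -0.13).

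The miR-26 family had 1 shared name, miR-26a-5p, which represses EZH2 and was higher without overlap in untreated CSC-like exosomes. It had 11, 16 and 27 counts against 17, 21 and 24, with shares of 0.843% ± 0.198 and 0.487% ± 0.199 (SD, n = 3 each). Its log2 difference was 0.78 (95% interval -0.37 to 1.92, adjusted p = 0.48 in edgeR). miR-148a-3p, which represses DNA methyltransferases, had 15, 9 and 10 against 98, 33 and 31 counts, and its log2 difference was -0.96 (95% interval -2.17 to 0.24, adjusted p = 0.446). The shares of miR-148a-3p overlapped. The miR-148 and miR-152 family, 3 names with 1 seed, made up 0.855% ± 0.339 and 1.51% ± 0.425 (SD, n = 3 each), and its untested members miR-148b-3p and miR-152-3p were lower without overlap.

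The miR-17-92 and miR-106b-25 clusters and paralogs, which drive proliferation, made up 1.29% ± 1.09 in untreated CSC-like and 1.84% ± 0.542 in cisplatin-treated parental exosomes (SD, n = 3 each). miR-92a-3p, the 1 tested of 8 shared names, had 16, 6 and 3 against 47, 30 and 53 counts. CSC-like replicate 1 reached the parental range and the other 2 CSC-like libraries lay below it. The log2 difference was -1.20 (95% interval -2.56 to 0.16, adjusted p = 0.426 in edgeR), and it was -2.04 without CSC-like replicate 1 and -0.47 without CSC-like replicate 3. The miR-23/27/24 clusters stood at 2.6% ± 1.06 and 2.45% ± 0.833 (SD, n = 3 each), with 3 of 6 names tested, none passed, and a median of 0.23. In that list miR-23a-3p had the largest value, 0.71 (95% interval -0.34 to 1.76), and miR-27b-3p stood at -0.50.

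Growth- and invasion-associated miRNAs, mostly miR-21-5p, made up 31.2% ± 8.23 and 33.8% ± 2.52 (SD, n = 3 each), and neither of the 2 tested names passed (median 0.13). miR-221-3p, which represses the cell cycle inhibitor CDKN1B, had 13, 23 and 31 against 40, 40 and 22 counts and a log2 difference of 0.41 (95% interval -0.77 to 1.58). With miR-222-3p the cluster stood at 1.27% ± 0.356 and 0.865% ± 0.281 (SD, n = 3 each). The miR-99/100 and miR-125 families, carried by miR-100-5p as the 1 tested of 5 names, stood at 18.3% ± 5.42 and 18.6% ± 3.32. miR-10a-5p, of the HOX-linked miR-10 family, had 6, 8 and 3 against 25, 14 and 16 counts and a log2 difference of -0.57 (95% interval -1.57 to 0.43), which turned to 0.18 without CSC-like replicate 3. miR-151a-3p had 22, 27 and 24 against 273, 48 and 48 counts and differed by -0.97 (95% interval -2.35 to 0.40), with 1 high library, parental replicate 1, without which the difference was -0.14.

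Names under the count filter were 66 of the 98 and held 5.34% to 8.72% of the counts of a library. The miR-183 cluster was among them, at 0.46% ± 0.193 and 1.02% ± 0.66 (SD, n = 3 each). Its member miR-183-5p had 5, 5 and 4 counts in untreated CSC-like and 70, 11 and 17 in cisplatin-treated parental libraries, where the shares overlapped narrowly. Groups did not overlap for 3 untested names as higher (miR-3182, miR-92b-3p and miR-99a-5p) and 4 as lower (miR-125b-1-3p, miR-1307-3p, miR-148b-3p and miR-152-3p), named after their values were seen. These are 10.6% of the 66 untested names, beside 21.9% of the tested ones. miR-148b-3p had 3, 4 and 6 counts against 27, 12 and 11. The higher names had few counts, with 10, 2 and 4 against 3, 2 and 0 for miR-3182. miR-92b-3p had 1, 2 and 2 against 1, 1 and 1, and miR-99a-5p had 1, 3 and 1 against 2, 1 and 0. Parental libraries are deeper, so 1 count is a larger share in any CSC-like than in any parental library. The part of depth in these separations was not tested. The miR-15/16, miR-29, miR-181 and p53-responsive lists had 1, 1, 2 and 2 shared names, none tested, and their mean shares stayed at or below 0.345% in both groups.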

How the data were processed

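The authors deposited 1 table per cell population that holds, per the file headers, untransformed and unnormalized read counts of each mature miRNA in each replicate. Trimming with cutadapt and checks with FastQC are taken from the submitters' processing notes. The aligner, mismatches allowed, genome build and miRNA release were not given in the sources used here. Each file holds 1 line that was not analysed here. Both tables hold raw counts, but each group comes from its own table, so table and group cannot be told apart.

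Library size was the sum of listed hsa- counts. Counts of the 98 shared names went into edgeR 4.0.16 under R 4.3.3: filterByExpr (minimum count 10, minimum total 15), TMM, quasi-likelihood test, Benjamini-Hochberg adjustment over 32 miRNAs, threshold 0.05. Standard errors came from the difference and the F statistic, and 95% intervals from the t distribution. DESeq2 1.42.0 was an alternative. The test was tried on simulated data. Exact intervals are Clopper-Pearson. No label says that replicates are separate cultures, so p-values measure only the spread of these samples, and it may be technical.

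For each replicate pair the chi-square of the counts was taken over miRNAs that had 10 counts or more. Parental replicates 2 and 3 had 1.48 per degree of freedom (p = 0.01, permutation test with fixed totals), other pairs 4.58 to 16.8, and none was merged. The comparison, lists and named miRNAs were chosen with earlier results of these data known. Named were the miRNA that passed, the 5 lowest p in each direction that did not, the 10 most abundant, the 5 narrowest intervals, 7 from earlier results and up to 4 per list. RefSeq matched 84 of the 98 names, all with the deposited sequence. Other alternatives were filters, scalings, a replicate block and leaving out each library.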

Additional observations from a re-analysis of the deposited data

How the results depend on the processing

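The number of miRNAs that passed was 1 with library totals, library sizes over shared names, DESeq2 and no low-count filter. It was 0 with at least 15 counts, in the model over 4 groups, with a replicate block and with parental replicates 2 and 3 summed, and 0 to 2 on leaving out each library. The number with an interval within 4-fold fell from 23 to 12 in the model over 4 groups and to 14 with the summed libraries, and ranged from 12 to 24 on leaving out each library. The number within 2-fold was 0, 1 and 1 to 2 in the same order. The between-minus-within dissimilarity of -0.00993 turned to 0.388 on the Euclidean log2 scale and ranged from -0.0329 to 0.0178 on leaving out each library. The cause was not tested. List shares moved by less than 1 SD with shared names as the denominator.

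Of 30 named and tested miRNAs, 17 kept their direction in every alternative that tested them and 13 turned in at least 1, none of them past the threshold. On leaving out each library the log2 difference ranged from -0.34 to 0.14 for let-7f-5p, -0.69 to 0.33 for let-7g-5p, -0.44 to 0.45 for miR-100-5p, -0.89 to 0.18 for miR-10a-5p and -0.87 to 0.63 for miR-1246. It ranged from -0.033 to 0.64 for miR-146a-5p, -0.19 to 0.16 for miR-21-5p, -0.66 to 0.58 for miR-27a-3p, -0.19 to 0.71 for miR-30a-5p and -0.13 to 0.58 for miR-30d-5p. It ranged from -0.48 to 0.39 for miR-320a-3p, -1.25 to 0.95 for miR-4488 and -0.081 to 1.05 for miR-4516. Parental replicates 2 and 3 summed gave 0.25 for let-7g-5p, no filter gave 0.028 for miR-100-5p and 0.020 for miR-4488, and at least 15 counts gave 0.0060 for miR-4488.

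With a replicate block miR-10400-5p had a log2 difference of 2.38 (adjusted p = 0.445), let-7g-5p of 0.12 and miR-27a-3p of -0.087. Same-numbered libraries did not deviate together (r = -0.02, -0.43 and 0.17 over 32 miRNAs), and no label states a pairing, so the main fit had no block. Not every library correlated best with its own number (CSC-like 3 with parental 2, r = 0.54). With 3 libraries per group these correlations cannot exclude a pairing. Each library held at most 6622 counts, and 32 names had enough counts to be tested.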
